A study of Mus musculus with 6 samples.

Results

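The nuclear genes of the mitochondrial respiratory chain were examined in macrophages with and without progranulin (PGRN, encoded by Grn). Members were all genes of the deposited table whose names follow the nomenclature of NADH dehydrogenase (Nduf), succinate dehydrogenase (Sdha to Sdhd), the cytochrome bc1 complex (Uqcr), cytochrome c oxidase subunits (Cox4 to Cox8) and ATP synthase subunits (Atp5), a rule that uses no measured value. This gave 94 of 54532 genes under 93 names, since Atp5o occurs on 2 gene models, one of which had no fragments in any library. By function they fell into 7 complex I core subunits, 29 complex I accessory subunits, 8 complex I assembly factors, 4 subunits of complex II, 8 of complex III, 20 of complex IV and 18 genes named for ATP synthase. The membership by name is not exact: Ndufa4 and Ndufa4l2 were counted with complex IV, where their products are placed now, Atp5s is not a subunit of the enzyme, and Cyc1 of complex III lacks the prefix and was treated as a context gene.

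The study compared 3 WT libraries (replicates 1 to 3) with 3 PGRN KO libraries (replicates 4 to 6), both labelled strain C57BL/6J. By the labels the cells were peritoneal macrophages plated overnight at 2000000 per well in DMEM with fetal bovine serum, and every library was taken 6 h after addition of Candida albicans at 1 fungal cell per macrophage, while the methods of the study speak of bone marrow-derived macrophages and another ratio. All 6 libraries therefore carry the fungal challenge, and no unchallenged cells were analysed here. The KO mice were purchased from a supplier other than that of the WT mice, so genotype and colony cannot be told apart, and nothing says whether replicates were separate animals. In that case the p-values below measure the spread between these libraries, which may be technical.

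As background, the respiratory chain passes electrons from NADH (complex I) or succinate (complex II) through ubiquinone, complex III and cytochrome c to oxygen at complex IV, and the proton gradient built on the way drives ATP synthase. Complex I is made of core subunits that hold the flavin and iron-sulfur clusters or pump protons, and of many accessory subunits that surround the core and are needed for its assembly and stability. All complexes except complex II join subunits from the nuclear and the mitochondrial genome. In activated macrophages the chain is known both for ATP production and as a source of reactive oxygen species and of signals that shape the inflammatory response.

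The libraries held 15996786 to 17551619 fragments assigned to genes, as recovered from the deposited values. Grn was at 323.5, 336.6 and 325.0 FPKM (fragments divided by library size and gene model length) in WT and at 0.0166, 0 and 0.0167 FPKM in PGRN KO (exact permutation test, two-sided, p = 0.1, the smallest that 3 against 3 libraries allow). The 8 macrophage markers summed to 11620 to 12560 FPKM in WT and 10440 to 14380 FPKM in PGRN KO, mostly from Lyz2, Cd14 and Cd68. Of these 8, Mertk (1.14 to 1.56 FPKM in WT, 2.91 to 3.84 FPKM in PGRN KO) rose and Csf1r (31 to 33.4 and 23.6 to 25.3 FPKM) fell with all libraries, while Cd14, Itgam and Fcgr1 were lower as well without replicate 6. Timd4 of large resident peritoneal macrophages was near 0. PGRN KO replicate 6 stood apart from the other libraries. Tested genes that are not members were split into 5 equal classes of gene model length. The median log2 difference of replicate 6 from the mean of all 6 libraries, itself included, was 0.28 in the shortest class and -0.29 in the longest. The members are short, with a median gene model of 1587 bases against 3856 bases over all tested genes, so counts, medians and the members the results turn on are given with and without that library.

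The respiratory chain genes as a group were shifted upward in PGRN KO macrophages, most of all in replicate 6. Of the 81 members that passed the filter (a mean of at least 1 FPKM over the 6 libraries), 77 had a positive log2 fold change (95.1%, against 46.7% of all 8882 tested genes), and 63 without replicate 6 (77.8%, against 45%). The median was 0.32 on the log2(FPKM + 1) scale against -0.03 over all tested genes. Members took 0.360%, 0.360% and 0.392% of all fragments in WT and 0.420%, 0.433% and 0.601% in PGRN KO. The 2 groups of libraries did not overlap on that measure. Over tested members the median log2 difference from the WT mean was 0.11 in replicate 4 and 0.13 in replicate 5 of PGRN KO, but 0.68 in replicate 6. Replicate 6 was the highest of all 6 libraries for 78 of the 81 members, against 34.3% of all tested genes.

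**Figure D1:**
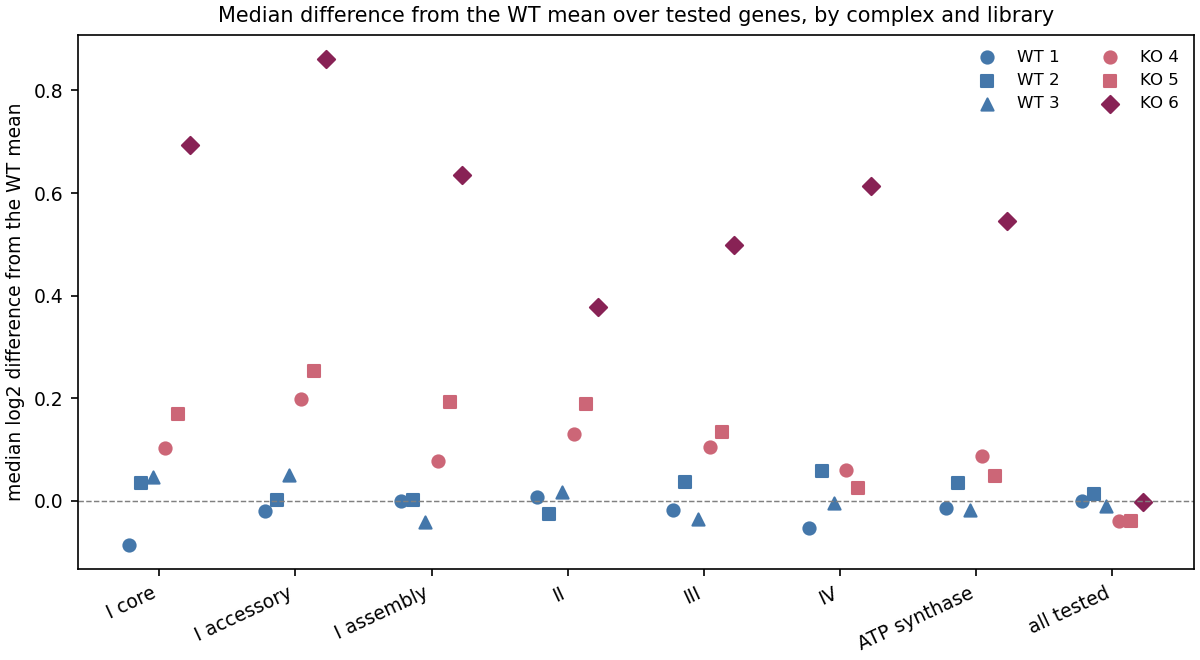
Median log2 difference of each library from the mean of the 3 WT libraries (vertical axis, log2(FPKM + 1) scale) over the tested genes of each complex, with all 8882 tested genes at the right, and 1 symbol per library. PGRN KO replicate 6 (dark diamonds) lay above the other 5 libraries in every complex, at 0.68 over all members, whereas replicates 4 and 5 lay at 0.11 and 0.13.

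In the comparison of all 6 libraries, 10 of the 81 tested members (12.35%) were higher in PGRN KO at a limma adjusted p under 0.05, close to the 10.4% of all tested genes called higher. None was lower, against 13.8% of all tested genes, and none was lower at an unadjusted p under 0.05 or with voom on the recovered fragments, whereas 20 were higher at an unadjusted p under 0.05, which 16.8% of all tested genes reached in that direction and 22.3% in the other. Values in the 2 groups did not overlap, with PGRN KO above WT, for 40 of the 81 members, against 21.2% of all tested genes. The opposite arrangement, seen for 27.6% of all tested genes, occurred in none. Without replicate 6 of PGRN KO, 18 members were higher (22.2%, against 16.2% of all genes) and 4 were lower (4.94%, against 25.1% of all genes), and the median log2 fold change of the 81 members was 0.13 against -0.04. All 10 members called with the 6 libraries were among these 18. A correction for gene length gave 16 members higher with all libraries (14.7% of all genes) and 19 without replicate 6 (18.3% of all genes), and scaling to TPM gave 17 (10.4% of all genes).

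The calls depended on single libraries of both groups. Leaving out WT replicate 1, 2 or 3 left 1 member called each time, while 3.73%, 4.64% and 4.47% of all tested genes were called higher in those fits. Without PGRN KO replicate 4 there were 6 members called (6.87% of all genes), and without replicate 5 there were 10 (8.32% of all genes). Cox6a2 was the member that kept its call in each of these fits.

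**Figure D2:**
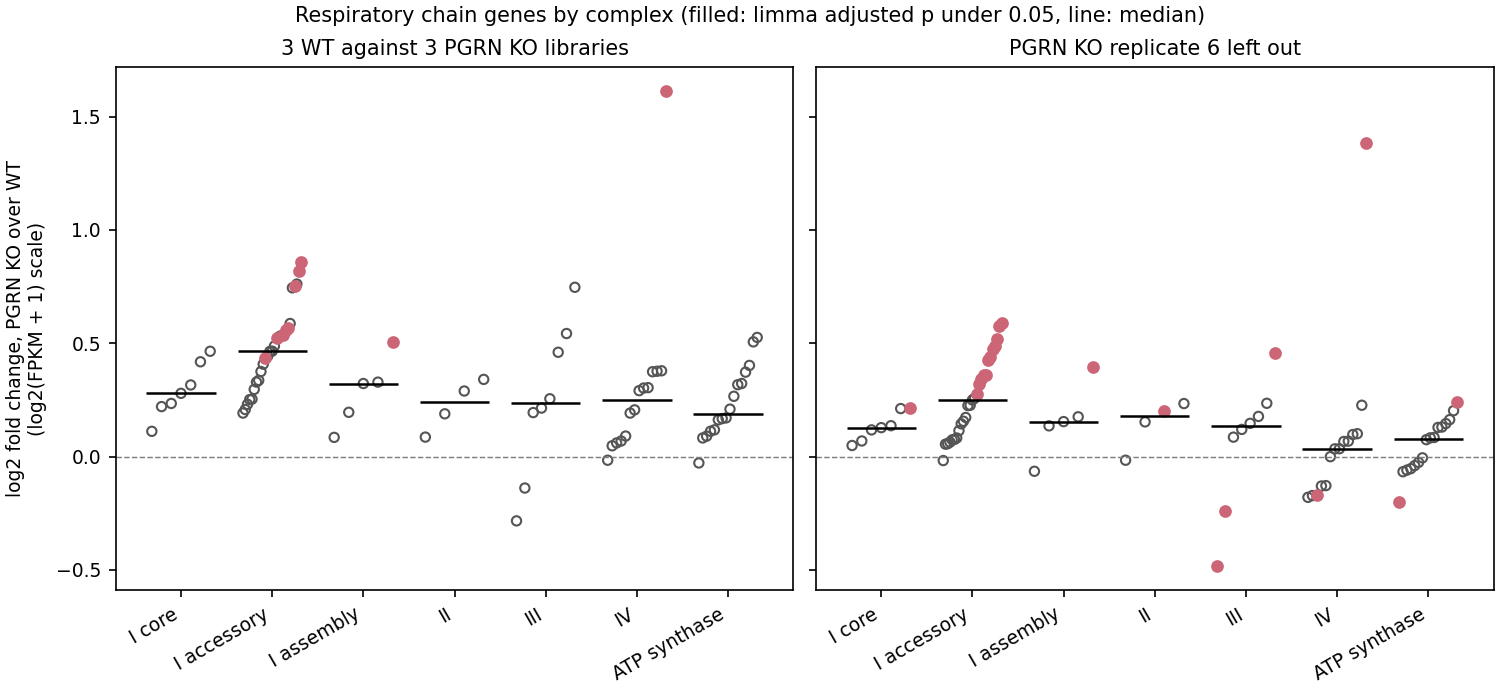
Log2 fold change of each tested member (PGRN KO over WT, log2(FPKM + 1) scale) by complex, with all 6 libraries (left) and without PGRN KO replicate 6 (right). Filled points passed the limma threshold and lines are medians: complex I accessory subunits held 8 of 10 and 12 of 18 members called higher, and members called lower appeared on the right alone.

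Cox6a2 had the largest fold change and the lowest p of the members. This gene encodes the heart and skeletal muscle isoform of subunit VIa of cytochrome c oxidase, and lies at chr7:128205435-128206387 on the minus strand (GRCm38, as are all gene positions here). Its level was 7.47, 7.46 and 7.42 FPKM in the WT and 21.9, 20.2 and 34.5 FPKM in the PGRN KO libraries, so the 3 WT values were almost equal and every PGRN KO value was far above them. The log2 fold change was 1.61 ± 0.19 (SE, limma adjusted p = 0.00289), and 1.38 ± 0.06 without replicate 6 (limma adjusted p = 0.000273). Over the 14 alternative settings the estimate ran from 1.38 to 1.76 and the limma adjusted p from 2.24e-05 to 0.021. The gene lies inside Itgad, which is on the opposite strand, with 70 bases (10.3% of the Cox6a2 model) shared between exons. Itgad itself was at 0 to 0.0492 FPKM in the 6 libraries.

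The ubiquitous counterpart Cox6a1, at chr5:115345642-115348981, was far more abundant, with 164, 177 and 181 FPKM in the WT and 183, 181 and 346 FPKM in the PGRN KO libraries. Its log2 fold change of 0.37 ± 0.25 did not pass the test (limma adjusted p = 0.302), nor did that of 0.07 ± 0.06 without replicate 6 (limma adjusted p = 0.405), and replicates 4 and 5 of PGRN KO lay close to the highest WT library. The ratio of Cox6a2 to Cox6a1 was 0.0457, 0.0422 and 0.0410 in WT and 0.120, 0.112 and 0.0999 in PGRN KO, which is a 2.57-fold difference of the means (exact permutation test, two-sided, p = 0.1, the smallest possible). Replicate 6 did not stand out in this ratio of 2 genes with models of similar length. It is 1 of 5 ratios between members that were computed, all chosen after their values were seen, and its p was 0.125 after Benjamini-Hochberg adjustment over the 5 (exact permutation tests). The muscle isoform stayed the minor form in both genotypes.

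**Figure D3:**
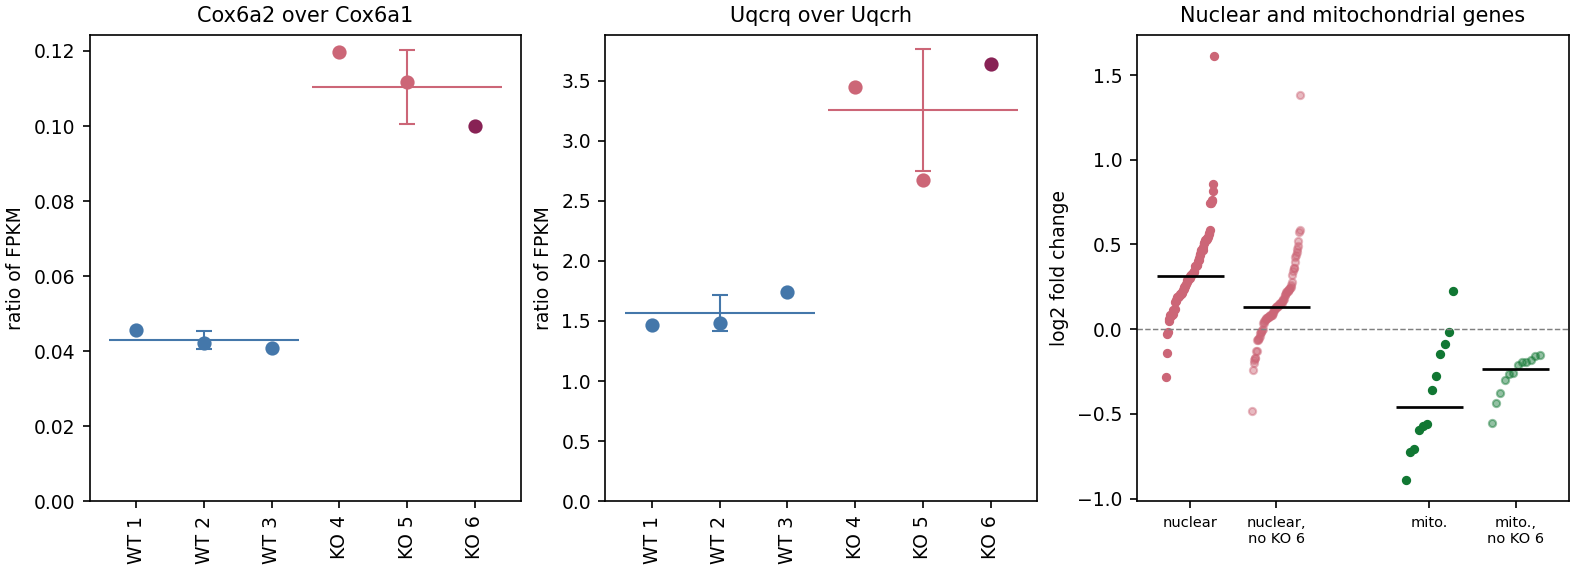
Ratio of the FPKM of Cox6a2 to Cox6a1 and of Uqcrq to Uqcrh in each library (points, with the group mean as a line and SD as a bar, n = 3), and log2 fold changes of the 81 nuclear and 12 mitochondrial genes with and without PGRN KO replicate 6 (points, with medians as lines). Both ratios were higher in every PGRN KO library than in every WT library, and the medians of the nuclear and the mitochondrial genes had opposite signs.

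Complex I accessory subunits supplied most of the other calls. All 27 tested members of this class had a positive log2 fold change (median 0.47, or 0.25 without replicate 6, when 26 of 27 were positive). Of these, 8 rose with all libraries (29.6%, against 10.4% of all tested genes) and 12 rose without replicate 6 (44.4%, against 16.2%). None fell in either fit at an adjusted or an unadjusted p, and the groups did not overlap, with PGRN KO higher, for 17 (63%, against 21.2%). The class was not tested as a whole. With voom 9 rose (33.3%, against 10.7% of all tested genes) and none fell (against 14.8%).

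Ndufb4, a small subunit of the membrane arm at chr16:37647170-37654453, was at 8.80, 9.07 and 8.45 FPKM in the WT and 12.6, 11.9 and 16.3 FPKM in the PGRN KO libraries. The gap between the groups was wider than the spread within WT, with a log2 change of 0.57 ± 0.13 (limma adjusted p = 0.0202), or 0.44 ± 0.06 without replicate 6 (limma adjusted p = 0.00303). Ndufa13, at chr8:69894180-69902558, encodes a subunit also known as GRIM-19, which has been linked to cell death and STAT3 signalling. It was at 12.9, 14.1 and 16.4 FPKM in the WT and 22.2, 21.7 and 37.0 FPKM in the PGRN KO libraries. Every PGRN KO value exceeded every WT value, with log2 changes of 0.82 ± 0.21 and, without replicate 6, 0.57 ± 0.10 (limma adjusted p = 0.0329 and 0.00653).

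Ndufa3, at chr7:3617373-3620327, had the largest estimate among accessory subunits. Its values were 9.12, 10.8 and 13.7 FPKM in the WT and 16.6, 17.7 and 30.9 FPKM in the PGRN KO libraries, and WT itself varied more, relative to its level, than for the other called subunits. The log2 fold change was 0.86 ± 0.25 (limma adjusted p = 0.0462), and 0.59 ± 0.15 without replicate 6 (limma adjusted p = 0.0258). Ndufs5 (chr4:123712710-123718202), a subunit facing the intermembrane space, was at 22.7, 26.6 and 27.2 FPKM in the WT and 37.6, 36.2 and 60.7 FPKM in the PGRN KO libraries. Here too the groups stood apart, with log2 changes of 0.75 ± 0.20 and, without replicate 6, 0.52 ± 0.09 (limma adjusted p = 0.0363 and 0.00554).

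Ndufa12 (chr10:94198720-94221443), whose product occupies the place that the assembly factor Ndufaf2 leaves late in assembly, was one of the lowest of the called subunits at 2.02, 2.37 and 2.30 FPKM in the WT and 3.28, 3.40 and 4.72 FPKM in the PGRN KO libraries. Its log2 fold change was 0.56 ± 0.13 (limma adjusted p = 0.0254), and 0.43 ± 0.08 without replicate 6 (limma adjusted p = 0.00856). The subunits Ndufa7 (chr17:33824591-33838316), Ndufa10 (chr1:92439010-92473860) and Ndufb9 (chr15:58933756-58939488) moved by smaller amounts. Ndufa7 was at 18.3, 19.9 and 17.5 FPKM in the WT and 23.9, 24.3 and 35.2 FPKM in the PGRN KO libraries, a log2 change of 0.54 ± 0.16 (limma adjusted p = 0.0475). Ndufa10 was at 7.98, 7.90 and 6.84 FPKM in the WT and 9.88, 9.48 and 12.6 FPKM in the PGRN KO libraries, a log2 change of 0.44 ± 0.13 (limma adjusted p = 0.0460). Ndufb9 was at 6.38, 6.36 and 6.56 FPKM in the WT and 7.90, 9.22 and 12.4 FPKM in the PGRN KO libraries, a log2 change of 0.52 ± 0.15 (limma adjusted p = 0.0462). Without replicate 6 the estimates for Ndufa7, Ndufa10 and Ndufb9 were 0.36, 0.32 and 0.36 (limma adjusted p = 0.00798, 0.0214 and 0.0125). In all of them the lowest PGRN KO value lay above the highest WT value, and replicate 6 was the highest library.

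**Figure D4:**
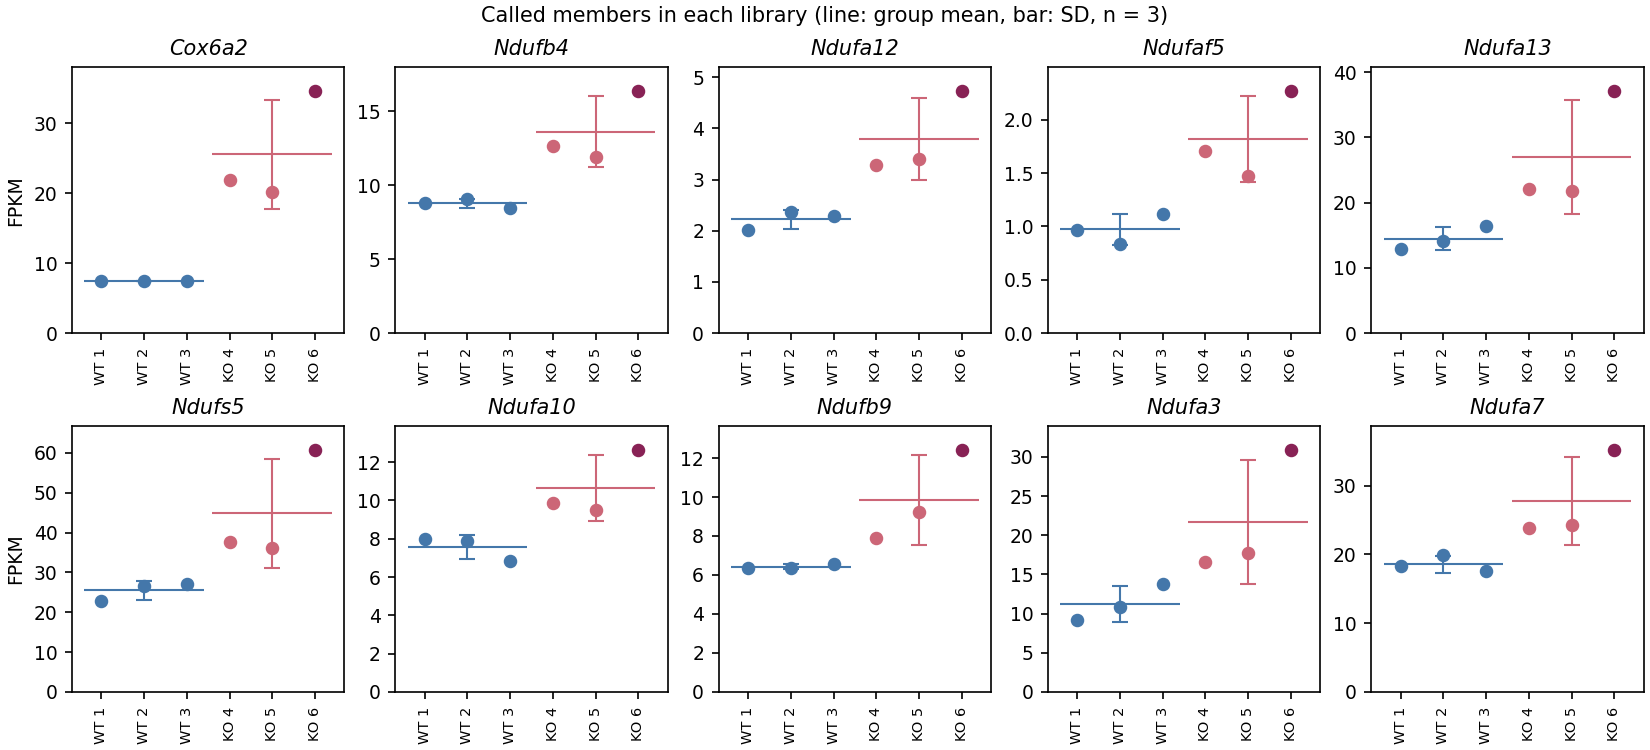
FPKM of the 10 members called higher with all 6 libraries, in each library (points), with group means (lines) and SD (bars, n = 3), each vertical axis starting at 0. In all 10 every PGRN KO library lay above every WT library and replicate 6 was the highest, for example 34.5 FPKM for Cox6a2 against 21.9 and 20.2 in replicates 4 and 5.

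Reads of several of these genes could be shared with other gene models, and the sources used here do not say how the counting treated them. For Ndufa13, 29.98% of the model overlaps exons of Tssk6 on the opposite strand, a gene at 0.0433 to 0.356 FPKM. Among the 31-base words of Ndufs5, 26.5% occur in the processed copy BC002163, which was at 1.499 to 5.26 FPKM and did not pass the test. For Ndufa12, 20.7% of words were shared, mostly with Gm15920, which was more abundant than Ndufa12 itself at 12.6 to 31.1 FPKM and did not pass the test either. Ndufb4 shared 19.1% of its words with copies such as Ndufb4c, at 0.592 to 2.37 FPKM, and Ndufb9 overlapped Gm49356 over 19.5% of its model. Ndufa3 shared no word with any other gene. In all, 32 of the 81 tested members had more than 10% of their words in common with another gene, and 12 overlapped other exons over more than 10% of the model, so their values are less certain.

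Without replicate 6 another 4 accessory subunits passed the test, namely Ndufb7, Ndufb11, Ndufa5 and Ndufb3. Ndufb7 was at 4.24, 3.78 and 4.61 FPKM in the WT and 6.50, 5.96 and 11.7 FPKM in the PGRN KO libraries. Its log2 fold change was 0.47 ± 0.09 without replicate 6 (limma adjusted p = 0.00827), against 0.74 ± 0.23 with all libraries (limma adjusted p = 0.0525): the estimate was larger with replicate 6, but so was its error. Ndufb11 was at 18.5, 18.1 and 22.1 FPKM in the WT and 29.4, 26.2 and 49.7 FPKM in the PGRN KO libraries, with 0.49 ± 0.10 without replicate 6 (limma adjusted p = 0.0120). Part of the Ndufb11 model, 12.9%, overlaps Rbm10 on the opposite strand.

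The other tested accessory subunits were not called with all libraries or without replicate 6, though not all of their estimates were smaller. Ndufa2, the most abundant of the class, was at 80.5, 89.95 and 89.8 FPKM in the WT and 99.5, 92.3 and 187 FPKM in the PGRN KO libraries, a log2 change of 0.46 ± 0.26 that did not pass the test (95% interval -0.14 to 1.07), or 0.14 ± 0.07 without replicate 6 (limma adjusted p = 0.150). Replicates 4 and 5 lay only a little above the highest WT library, and replicate 6 far above. Ndufa1 and Ndufa6 overlapped between groups, as did Ndufs4, which is mutated in inherited complex I deficiency (7.88, 8.26 and 9.39 FPKM in WT, 9.13, 8.60 and 15.3 FPKM in the PGRN KO libraries, limma adjusted p = 0.321, and 0.627 without replicate 6). Ndufb2 and Ndufab1, the mitochondrial acyl carrier protein, were below the filter at 0.443 to 1.07 and 0.425 to 0.737 FPKM.

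The core subunits of complex I did not pass the test with all 6 libraries. Their 7 log2 fold changes were all positive, from 0.11 to 0.46 with a median of 0.28 (0.13 without replicate 6), but none was called at an adjusted or an unadjusted p, nor by voom. Ndufv1, which binds NADH and the flavin, was at 10.4, 11.5 and 11.7 FPKM in the WT and 13.4, 13.0 and 22.8 FPKM in the PGRN KO libraries. It passed without replicate 6, with 0.22 ± 0.07 (limma adjusted p = 0.0431), and had 0.46 ± 0.21 with all libraries (limma adjusted p = 0.140). Ndufs1, the largest core subunit, was at 2.34, 2.74 and 2.55 FPKM in the WT and 2.90, 2.78 and 2.79 FPKM in the PGRN KO libraries, and was one of the few members for which replicate 6 was not the highest library. The difference between core and accessory subunits was not tested.

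Among the 8 assembly factors of complex I, which help to build the complex and are not part of it, 5 were tested. Ndufaf5 (chr2:140170649-140203689), a methyltransferase-like factor that hydroxylates Ndufs7, rose. It was low in all libraries, with 0.969, 0.831 and 1.12 FPKM in the WT and 1.71, 1.48 and 2.26 FPKM in the PGRN KO libraries, and had a log2 change of 0.51 ± 0.13 (limma adjusted p = 0.0323), or 0.40 ± 0.10 without replicate 6 (limma adjusted p = 0.0266). At a WT level around 1 FPKM the pseudocount of 1 makes this estimate smaller than the ratio of the values. Ndufaf8, the most abundant factor, was at 2.36, 2.84 and 2.92 FPKM in the WT and 2.91, 3.23 and 5.00 FPKM in the PGRN KO libraries and did not pass the test (0.32 ± 0.17, limma adjusted p = 0.206, or 0.14 ± 0.09 without replicate 6, limma adjusted p = 0.297). Ndufaf4, Ndufaf6 and Ndufaf7 were below the filter.

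Complex II, which is built from nuclear genes alone and is also an enzyme of the tricarboxylic acid cycle, gave small differences. Sdha, the flavoprotein that oxidises succinate, was at 10.99, 10.8 and 11.1 FPKM in the WT and 12.5, 13.0 and 15.5 FPKM in the PGRN KO libraries. The groups did not overlap, and the log2 fold change was 0.29 ± 0.10 (limma adjusted p = 0.0781), or 0.20 ± 0.05 without replicate 6, where it passed (limma adjusted p = 0.0239). Sdhb, the iron-sulfur subunit, was at 13.9, 13.7 and 14.5 FPKM in the WT and 15.2, 18.3 and 21.04 FPKM in the PGRN KO libraries, with 0.34 ± 0.12 (limma adjusted p = 0.0890), or 0.23 ± 0.09 without replicate 6 (limma adjusted p = 0.0723). Both had an unadjusted p under 0.05 with all libraries. The membrane anchors showed smaller values. Sdhc was at 11.5, 11.5 and 10.2 FPKM in the WT and 12.4, 12.4 and 13.4 FPKM in the PGRN KO libraries, with a 95% interval of the log2 fold change of -0.02 to 0.40, or -0.01 to 0.32 without replicate 6. Sdhd, the most abundant of the complex, was at 38.7, 37.5 and 39.0 FPKM in the WT and 34.5, 41.8 and 47.2 FPKM in the PGRN KO libraries, with overlapping groups and a 95% interval of -0.21 to 0.38, or -0.22 to 0.19 without replicate 6.

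Within complex III the members went in different directions. Uqcrq (chr11:53427922-53430831), a small subunit near the ubiquinone sites, was at 60.5, 65.1 and 65.9 FPKM in the WT and 90.5, 85.4 and 161 FPKM in the PGRN KO libraries. Its groups were well apart, with a log2 change of 0.46 ± 0.06 without replicate 6 (limma adjusted p = 0.00264) and 0.75 ± 0.23 with all libraries, where it missed the threshold (limma adjusted p = 0.0581). This gene shared no word with another gene. Uqcrh (chr4:116066965-116075071), the hinge subunit that holds cytochrome c1 and cytochrome c together, was at 41.1, 43.8 and 37.9 FPKM in the WT and 26.2, 31.9 and 44.4 FPKM in the PGRN KO libraries. Replicates 4 and 5 lay below all WT libraries, and replicate 6 above them. Uqcrh was lower without replicate 6 (-0.48 ± 0.10, limma adjusted p = 0.0121), and not called with all libraries (-0.28 ± 0.18, limma adjusted p = 0.294).

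The ratio of Uqcrq to Uqcrh, a pair chosen after their values were seen, was 1.47, 1.49 and 1.74 in WT and 3.45, 2.68 and 3.64 in PGRN KO. The 2.08-fold difference of the means was of similar size in replicate 6 and in the other 2 libraries (exact permutation test, two-sided, p = 0.1, the smallest possible). After Benjamini-Hochberg adjustment over the 5 ratios this p was 0.125. Uqcrq had the largest positive and Uqcrh the largest negative log2 fold change of the class. The choice of the pair therefore favoured separate groups, and the p adds no support. The Rieske iron-sulfur protein Uqcrfs1 (chr13:30540308-30545362) was at 70.0, 78.8 and 68.2 FPKM in the WT and 60.0, 61.8 and 75.7 FPKM in the PGRN KO libraries, and was lower without replicate 6 as well (-0.24 ± 0.07, limma adjusted p = 0.0410). The core protein Uqcrc1 was at 15.9, 18.1 and 15.6 FPKM in the WT and 17.2, 17.9 and 23.2 FPKM in the PGRN KO libraries, and the core protein Uqcrc2 at 17.1, 16.2 and 16.05 FPKM in the WT and 19.2, 17.5 and 20.3 FPKM in the PGRN KO libraries. Neither passed the test in either fit. The median of the 8 members was 0.23, or 0.13 without replicate 6.

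Complex IV held 14 tested members, of which Cox6a2 rose and the other 13 did not pass the test with all libraries. Their median log2 fold change was 0.25, and 0.03 without replicate 6, when 8 of 14 were positive. Besides Cox6a2 the tissue-specific isoforms were scarce. Cox4i2, the lung and hypoxia isoform, was at 0 to 0.343 FPKM, while its ubiquitous counterpart Cox4i1 was at 129.8, 142 and 143 FPKM in the WT and 147, 149 and 267 FPKM in the PGRN KO libraries (95% interval of the log2 fold change -0.16 to 0.92, or -0.05 to 0.25 without replicate 6). Cox7a1, another isoform of heart and skeletal muscle, was at 1.34, 1.39 and 0.622 FPKM in the WT and 1.295, 0.494 and 2.05 FPKM in the PGRN KO libraries, with groups that overlapped throughout and a 95% interval of -0.59 to 0.73, or -0.78 to 0.43 without replicate 6. The ratio of Cox7a1 to its counterpart Cox7a2 gave no difference like that of the Cox6a pair (mean 0.0185 with SD 0.00664 for WT, mean 0.0204 with SD 0.00949 for PGRN KO, n = 3 each, exact permutation test, two-sided, p = 0.6). The testis isoforms Cox6b2, Cox7b2 and Cox8c and the muscle isoform Cox8b had no fragment in any of the 6 libraries.

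The ubiquitous subunits of complex IV were among the most abundant members. Cox8a had the highest mean of all members and was at 178, 199 and 198 FPKM in the WT and 208, 194 and 320.2 FPKM in the PGRN KO libraries (0.29 ± 0.19, limma adjusted p = 0.300, or 0.07 ± 0.07 without replicate 6, limma adjusted p = 0.468). Cox6b1 was at 72.8, 83.3 and 67.6 FPKM in the WT and 66.4, 69.5 and 108 FPKM in the PGRN KO libraries. Cox7a2 was at 59.1, 63.1 and 57.1 FPKM in the WT and 54.1, 51.1 and 74.3 FPKM in the PGRN KO libraries. Cox7b was at 39.8, 45.8 and 40.6 FPKM in the WT and 39.1, 37.5 and 57.3 FPKM in the PGRN KO libraries. In these 3 genes replicate 6 was the highest library, the estimates without it were -0.13, -0.18 and -0.13 on the log2 scale, and none was called in either fit. Cox7a2l, a factor that joins complex III and complex IV in supercomplexes, was at 107, 107 and 108 FPKM in the WT and 95.5, 95.5 and 150.4 FPKM in the PGRN KO libraries. It was lower without replicate 6 (-0.17 ± 0.04, limma adjusted p = 0.0252) and not called with it (limma adjusted p = 0.866). Ndufa4 was at 5.11, 4.41 and 5.54 FPKM in the WT and 5.60, 6.46 and 8.59 FPKM in the PGRN KO libraries (0.38 ± 0.15, limma adjusted p = 0.119, or 0.23 ± 0.10 without replicate 6, limma adjusted p = 0.128), and its relative Ndufa4l2, known from hypoxic cells, at 0 to 0.211 FPKM.

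ATP synthase had the smallest class median with all libraries, at 0.19 (0.08 without replicate 6, where complex IV was lower), and no gene of its 16 tested passed with all libraries at an adjusted or an unadjusted p or with voom. Atp5b, the catalytic beta subunit, was at 117, 121 and 121 FPKM in the WT and 117, 112 and 157 FPKM in the PGRN KO libraries. Replicate 6 was the only library of PGRN KO outside the WT range on the upper side, and the 95% interval of the log2 fold change was -0.24 to 0.42, or -0.18 to 0.06 without replicate 6. Atp5a1, the alpha subunit, also overlapped between groups, with 109, 113 and 114 FPKM in the WT and 114, 109 and 143 FPKM in the PGRN KO libraries. Atp5e, the small epsilon subunit of the central stalk, was at 35.2, 34.5 and 33.6 FPKM in the WT and 41.1, 40.7 and 74.8 FPKM in the PGRN KO libraries and rose without replicate 6 by 0.24 ± 0.05 (limma adjusted p = 0.0106), and was not called with it (0.53 ± 0.23, limma adjusted p = 0.136). Atp5g3, one of 3 genes for the c-ring subunit, was at 32.1, 33.2 and 31.7 FPKM in the WT and 27.8, 28.1 and 40.6 FPKM in the PGRN KO libraries and fell without replicate 6 (-0.20 ± 0.05, limma adjusted p = 0.0196). The other genes for the same c subunit, Atp5g1 and Atp5g2, did not pass in either fit.

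The upward shift was also read against gene length. Of the 81 tested members, 45 fell in the shortest of the 5 length classes (38 to 1776 bases). Other genes in this class had a median log2 fold change of 0.06, and -0.05 without replicate 6, whereas the members in it had 0.38 and 0.14. The next class (1777 to 3158 bases) held 23 members with medians of 0.25 and 0.13, against 0.07 and -0.03 for other genes. The members' medians lay above those of other genes in both classes and both fits, and how far RNA quality or library preparation contributed to replicate 6 was not tested.

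**Figure D5:**
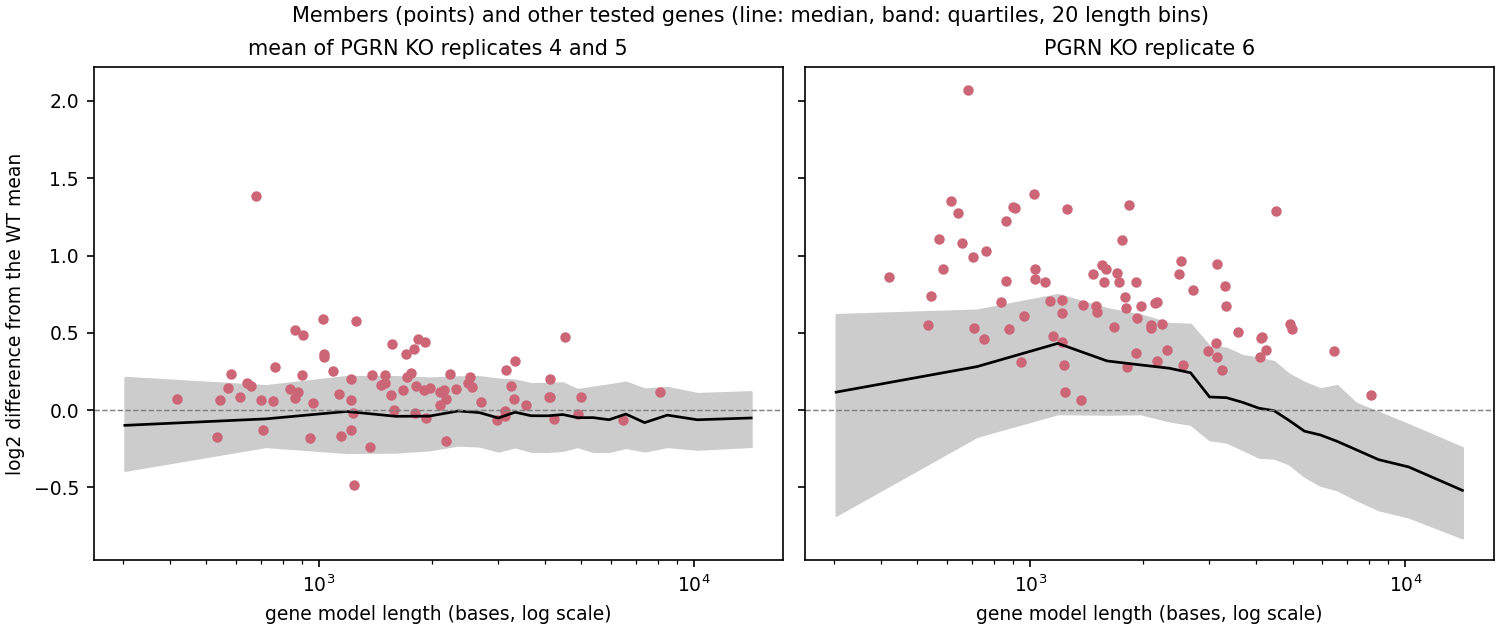
Log2 difference from the WT mean (vertical axis, log2(FPKM + 1) scale) against gene model length (horizontal log axis, bases) for the mean of PGRN KO replicates 4 and 5 (left) and for replicate 6 (right). Points are the 81 tested members, and line and band are the median and quartiles of the other tested genes. The line is nearly flat on the left and slopes down on the right, where most members lie above it.

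Levels compared between genes depend on the gene model as well. The tested members ranged from 1.06 to 216 FPKM in mean level (median 18.3, against 5.94 for all tested genes), with a median of 523 fragments per library and 10.8 for the member with the fewest. The deposited length is that of the merged exons, which for the members was a median of 1.53 times the principal transcript, more than 2 times for 26 of them, 7.26 times for Ndufb7 and 11.8 times for Atp5l. FPKM values of such genes are lower than they would be per length of that transcript.

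The promoters of the members were searched for motifs known from respiratory chain genes. RefSeq windows (GRCm38.p6) from 250 bases before to 50 bases after the start were found for 76 of the 93 member names, 2 of them through an older symbol. The letters GCATGCGC of nuclear respiratory factor 1 (NRF1), on either strand, occurred in 15.8% of these windows and in 3.6% of 17492 coding gene windows. CCGGAAG, the ETS motif read by GABP, occurred in 22.4% and 11.9%, AAGATGGCG of YY1 in 9.2% and 1.9%, and TCAAGGTCA of estrogen-related receptors in 2.6% and 0.3%. TATAAA occurred in 9.2% and 13.3%. A second NRF1 spelling, GCAGGCGC, chosen after the windows were seen, occurred in 14.5% and 5.5%. Of the 8 accessory subunits called with all libraries, 7 had a window. None of these held the exact letters of any of the first 4 motifs, whereas 31 of the 76 members did. Variant spellings of the motifs were not searched, so their absence is not shown. The share of all coding gene windows with any of the 4 was not computed, and the difference was not tested. The second NRF1 spelling was present in the windows of Ndufb4, Ndufs5 and Ndufa12, and absent from those of Ndufa3, Ndufa7, Ndufa10 and Ndufa13. Ndufaf5, the called assembly factor, also had a window, which held 2 matches to the NRF1 letters GCATGCGC. Neither lay within the 150 bases before its start. No window was found for Cox6a2, Uqcrq and Ndufb9.

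The 150 bases before the start are shown for 3 called subunits and for Cox6a1, the counterpart of Cox6a2. The start is the more upstream of the RefSeq and the deposited start. This sets a promoter with the exact letters GCATGCGC, chosen after the windows were seen, beside promoters of called accessory subunits without these letters. Only exact spellings were searched. The Ndufb4 stretch holds gcacgcgc, close to GCATGCGC but not an exact match, and such variants are not marked. The contrast therefore depends on the spelling and on the example chosen. The second spelling in the Ndufb4 window lies outside the bases shown. Capitals mark the NRF1 letters in Cox6a1, where 2 overlapping matches on opposite strands form a palindrome and the second spelling follows, the second spelling in Ndufs5, and TATAAA on the reverse strand in Ndufa7. A match is a description of the sequence and not a mapped binding site.
Cox6a1 (chr5:115348982-115349131, minus strand): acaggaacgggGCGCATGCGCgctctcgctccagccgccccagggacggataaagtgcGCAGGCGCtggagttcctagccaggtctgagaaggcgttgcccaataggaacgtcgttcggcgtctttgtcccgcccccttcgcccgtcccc
Ndufs5 (chr4:123718203-123718352, minus strand): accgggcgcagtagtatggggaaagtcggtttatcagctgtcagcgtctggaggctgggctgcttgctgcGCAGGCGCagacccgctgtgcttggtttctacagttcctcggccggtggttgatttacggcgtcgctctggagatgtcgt
Ndufa7 (chr17:33824422-33824571, plus strand): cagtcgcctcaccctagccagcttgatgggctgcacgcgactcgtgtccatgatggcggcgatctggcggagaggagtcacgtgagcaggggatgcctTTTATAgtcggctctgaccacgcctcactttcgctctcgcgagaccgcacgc
Ndufb4 (chr16:37654454-37654603, minus strand): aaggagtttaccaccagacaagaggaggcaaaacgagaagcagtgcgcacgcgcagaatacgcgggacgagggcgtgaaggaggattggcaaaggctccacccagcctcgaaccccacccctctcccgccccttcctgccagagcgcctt

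The 13 protein-coding genes of the mitochondrial genome, which supply the remaining subunits of complexes I, III and IV and of ATP synthase, had a median below 0. Of the 12 tested, none was higher (none at an unadjusted p under 0.05 or with voom), 1 was lower with all libraries (8.33%, less than the 13.8% of all tested genes) and 7 were lower without replicate 6 (58.3%, against 25.1% of all genes). Their median log2 fold change was -0.46, and -0.24 without replicate 6, against 0.32 and 0.13 for the nuclear members. With the length correction and without replicate 6, 4 were called lower, and with the length correction or the TPM scale and all libraries none was. For 7 of the 12, every PGRN KO value lay below every WT value, an arrangement seen for 27.6% of all tested genes. The groups overlapped for mt-Nd3, mt-Nd4l, mt-Co2, mt-Co3 and mt-Atp6, whose means over the 6 libraries were only 3.18 to 32.1 FPKM. mt-Nd1, a complex I subunit, was at 728, 763 and 683 FPKM in the WT and 513, 557 and 385 FPKM in the PGRN KO libraries. All PGRN KO values lay below all WT values, and the log2 fold change was -0.59 ± 0.15 (limma adjusted p = 0.0336), or -0.44 ± 0.07 without replicate 6 (limma adjusted p = 0.00519). mt-Cytb of complex III was at 605, 619.9 and 557 FPKM in the WT and 453, 461 and 310.4 FPKM in the PGRN KO libraries, and was lower without replicate 6 (limma adjusted p = 0.00591). The difference between the nuclear and the mitochondrial genes was not tested.

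Assembly and insertion factors outside the name rule were mixed. Of 26 tested, 6 rose and 1 fell with all libraries (23.1% and 3.85%, against 10.4% and 13.8% of all tested genes), and 7 rose and 4 fell without replicate 6 (26.9% and 15.4%, against 16.2% and 25.1%). Cox15, needed for the heme a of complex IV, was at 2.24, 1.93 and 1.78 FPKM in the WT and 3.87, 3.50 and 3.38 FPKM in the PGRN KO libraries, a log2 change of 0.62 ± 0.10 (limma adjusted p = 0.00731) in which replicate 6 was the lowest of the PGRN KO libraries, or 0.65 ± 0.09 without it (limma adjusted p = 0.00356). The others that rose were Sdhaf4 of complex II, Uqcc2 of complex III, Sco1 and Coa5 of complex IV and Foxred1 of complex I. Ttc19, which clears fragments of Uqcrfs1 from complex III, fell, with 2.56, 2.34 and 2.44 FPKM in the WT and 1.91, 1.59 and 1.71 FPKM in the PGRN KO libraries (limma adjusted p = 0.0396, and 0.0267 without replicate 6). Cytochrome c1 (Cyc1) and cytochrome c (Cycs) had log2 fold changes of 0.33 and 0.40 and did not pass (limma adjusted p = 0.123 and 0.151). Without replicate 6 these were 0.18 and 0.20 (limma adjusted p = 0.0535 and 0.146).

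Among 9 tested regulators of respiratory chain transcription, 1 rose (11.1%, against 10.4% of all tested genes) and 3 fell (33.3%, against 13.8%) with all libraries. Without replicate 6, 1 rose and 4 fell (11.1% and 44.4%, against 16.2% and 25.1% of all tested genes). Tfam, which packages and transcribes mitochondrial DNA, was at 2.99, 2.93 and 2.75 FPKM in the WT and 4.10, 4.32 and 4.25 FPKM in the PGRN KO libraries, a log2 change of 0.43 ± 0.08 (limma adjusted p = 0.0130), or 0.42 ± 0.07 without replicate 6 (limma adjusted p = 0.00522). Yy1 was at 24.3, 24.1 and 24.5 FPKM in the WT and 13.8, 15.9 and 13.9 FPKM in the PGRN KO libraries and fell (-0.70 ± 0.09, limma adjusted p = 0.00344, or -0.67 ± 0.07 without replicate 6, limma adjusted p = 0.00131). Pprc1, a coactivator of the PGC-1 family, and the mitochondrial transcription factor Tfb2m fell too (-0.80 and -0.50, limma adjusted p = 0.00561 and 0.0332). Nrf1 itself was at 3.27, 3.23 and 3.51 FPKM in the WT and 3.21, 3.24 and 3.40 FPKM in the PGRN KO libraries, with overlapping groups and a 95% interval of -0.21 to 0.18. For Tfam, Yy1 and Nrf1 the 3 PGRN KO values were close to each other. In the tricarboxylic acid cycle, 2 of 12 tested genes rose (16.7%, against 10.4% of all tested genes), Fh1 (0.48, limma adjusted p = 0.0156) and Sucla2 (0.31, limma adjusted p = 0.0448), and none was called lower with all libraries or by voom. At an unadjusted p under 0.05, 1 was lower, the citrate synthase gene Cs, which was the gene called lower without replicate 6.

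Marker genes of other cells moved between the groups too. The summed level of 5 B cell markers was 1.501 to 2.495 FPKM in WT and 6.62 to 8.92 FPKM in PGRN KO, and that of 5 mast cell markers was 2.01 to 2.76 and 8.97 to 13.7 FPKM, with Ms4a2 at 0. Of each list 2 genes were tested and both rose. The 4 markers of large resident peritoneal macrophages summed to 11.01 to 12.2 FPKM in WT and 16.3 to 20 FPKM in PGRN KO, with Icam2 and Lyve1 higher by the test. Gata6 overlapped between groups and was not called, and Timd4, too low to be tested, went from 0.055 to 0.204 FPKM in WT to 0 to 0.0531 FPKM in PGRN KO. T cell markers summed to 2.56 to 3.03 and 3.45 to 5.68 FPKM, and neutrophil markers to at most 0.501 FPKM, with 5 of 6 under 0.1. The 4 dividing cell markers summed to 2.67 to 4.61 FPKM in WT and 1.83 to 2.73 FPKM in PGRN KO, ranges that overlapped. Mki67, the only one of them tested, was lower in every PGRN KO library but was not called (limma adjusted p = 0.0569, and 0.0836 without replicate 6). In bulk RNA, fewer cells of a type and less RNA per cell cannot be told apart, and the part of these cells in the respiratory chain values was not tested.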

How the data were processed

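RNA-seq of 3 WT and 3 PGRN KO macrophage cultures was analysed. Poly(A) RNA was sequenced in pairs with a kit that does not mark strand. The submitters' processing notes name HISAT2 2.0.5, featureCounts 1.5.0-p3, DESeq2 1.20.0 and GRCm38 (mm10), while the study's methods give other versions and HTSeq. No source used here says if strand entered the counting. The authors deposited FPKM per gene, with gene positions and lengths, and every per-sample column was used (0 left out). The values were whole multiples of 1 fragment within 0.001 of a step for 100% of values, so fragments were recovered from them.

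Genes with a mean of at least 1 FPKM were tested with limma 3.58.1 (R 4.3.3, trend, two-sided, no covariates) on log2(FPKM + 1), with Benjamini-Hochberg adjustment over all 8882 genes and a threshold of 0.05. A fold change on this scale understates that of low genes. Ratios were tested with exact permutation tests (scipy). Gene models and shared 31-base words were read from GENCODE M21, in which all 94 members were found. Alternatives were a pseudocount of 0.1, no filter, a filter at 5 FPKM, TPM, sample quality weights, a length correction (loess, span 0.5) with and without PGRN KO replicate 6, voom on the fragments, and leaving out each library. The limma script was tested on simulated data.

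Genes named are Grn, complex II, all isoform families, the members with the highest mean and the largest changes per class, up to 10 called members, up to 6 called only without PGRN KO replicate 6, and per context list the strongest call in each direction. Others named to complete a count or a complex, and the ratios, were chosen after their values were seen. Members and lists were chosen with earlier results of these data known. Of the genes these rules select, 1 is not reported here.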

Additional observations from a re-analysis of the deposited data

How the results depend on the processing

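No paired analysis was possible because replicates 1 to 3 are WT and 4 to 6 are PGRN KO. The number of members called higher, 10 with the main settings, was 1 with no filter on low values (22912 genes adjusted for), 17 on the TPM scale, 23 with sample quality weights, 16 with the length correction and 19 with the length correction and without PGRN KO replicate 6. The number called lower, 0 with the main settings, was 3, 2 and 5 under the last 3 of these. For quality weights the share of all tested genes called is not given here, so the counts from that fit cannot be set against it. Leaving out 1 library gave 1 to 18 members higher and 0 to 4 lower. Context genes called higher (9) were 3 with no filter, 2 with a filter at 5 FPKM and 15 with quality weights. Context genes called lower (5) were 2 with no filter, 2 on the TPM scale, 14 with quality weights and 12 with the length correction and without PGRN KO replicate 6. Leaving out 1 library gave 1 to 10 and 2 to 16 of them. The cause of these shifts was not tested, except that adjusting over more genes is how the unfiltered fit was built.

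The direction changed for members with small estimates. With quality weights, the length correction and the length correction without PGRN KO replicate 6, in that order, log2 fold changes were -0.145, -0.06 and -0.155 for Cox7a2l, -0.077, -0.049 and -0.117 for Cox7b and -0.037, -0.023 and -0.003 for Sdhd. With quality weights and the last of these they were -0.026 and -0.030 for Atp5b, -0.105 and -0.097 for Cox6b1 and -0.173 and -0.127 for Cox7a1. On the TPM scale they were 0.025 for Atp5g3 and 0.038 for Cox7a2. Leaving out 1 library gave -0.059 to 0.182 for Atp5b, -0.201 to 0.063 for Atp5g3, -0.128 to 0.216 for Cox6b1, -0.172 to 0.344 for Cox7a1, -0.179 to 0.086 for Cox7a2, -0.169 to 0.156 for Cox7a2l, -0.13 to 0.171 for Cox7b and -0.016 to 0.205 for Sdhd. For the 34 tested members that the naming rule selects, 472 values were computed under alternatives, of which 351 kept direction and side of the threshold, 46 became called, 46 lost their call and 29 changed direction. Class medians moved by less than the spread between replicates. PGRN KO replicate 6, with a quality weight of 0.0899, sets that spread. The lowest tested members had about 11 fragments per library, which limits their precision.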
